A study of Mus musculus with 6 samples.

Results

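Heat shock proteins and their DNAJ co-chaperones were followed in the suprachiasmatic nucleus (SCN), the hypothalamic clock of the mouse, after a light pulse at night. The members were all probe sets whose single gene symbol begins with Hsp and 1 of the family letters or a digit, or with Dnaja, Dnajb or Dnajc, together with the heat shock factors Hsf1 and Hsf2. This rule, which used no measured value, found 123 of 22626 probe sets, which stand for 62 of 12393 genes. Of these, 79 probe sets of 49 genes were among the 45.7% of probe sets, standing for 6739 genes, that passed a filter on low signals. Hsf1 and Hsp90ab1 had no probe set with a single symbol in the annotation used and were not analysed here. A further 2 probe sets shared between Dnajc19 and another symbol were left out.

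The tested arrays held SCN RNA of adult male C57BL/6 mice, aged 2 to 4 months and kept in a 14:10 light-dark cycle, which received a light pulse of 30 min at 2400 lux starting 1 h after lights off. The sham light pulse mice were of the same strain, sex and cycle, received a dark pulse of 30 min and were killed under dim red light. The lighting when the light pulse mice were killed is not given in the sources used here. Tissue of both groups was taken 1.5 h after lights off, when the pulse ended, and the SCN was cut out of 12 μm sections by laser capture. Each of the 3 arrays per group held the pooled sections of 3 mice, so the spread between mice is not seen, and whether a mouse entered more than 1 pool is not given in the sources used here. From 1 ng of total RNA, 2 rounds of amplification gave the material for Affymetrix Mouse 430A 2.0 arrays, whose values are signals in arbitrary units scaled per array. A probe set is a group of short probes to 1 transcript, and differences are given as the log2 of light pulse over sham light pulse, with the standard error (SE) of the fit.

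Chaperones bind unfolded stretches of other proteins and help them to fold, move or be degraded. HSP70 proteins do this in cycles of ATP binding and hydrolysis. DNAJ proteins bring the substrate and set off the hydrolysis through their J domain, and nucleotide exchange factors of the HSP110 group reset the cycle. HSP90 takes over partly folded clients such as kinases and steroid receptors, the chaperonin Hspd1 and its lid Hspe1 enclose proteins in mitochondria, and small heat shock proteins hold unfolded proteins in solution. Many of these genes are induced by heat shock factors through heat shock elements in their promoters, while those of the endoplasmic reticulum answer to the unfolded protein response. In neurons, HSP70 and DNAJ proteins also serve the synaptic vesicle cycle, among them Hspa8, which strips clathrin from vesicles, and Dnajc5, which sits on the vesicles themselves.

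The arrays carried the response to light. All 12 immediate-early genes that the study had named from these arrays had higher signals after the light pulse, and 7 of them passed the adjusted test, which is no independent check since they were chosen here. Correlations of log2 signal between arrays ranged from 0.886 to 0.935, and light pulse replicate 3 stood apart through Ttr, the thyroid hormone carrier of the choroid plexus, with 110322.6 there and at most 295.6 on any other array. Of the SCN markers 8 of 8 were kept, with a summed signal of 71608.0 to 94252.5 after the light pulse and 60788.2 to 72053.2 after the sham light pulse. Summed signals of all measured astrocyte, oligodendrocyte and microglia markers, kept or not, overlapped between the groups. Those of all 6 measured endothelial and pericyte markers did not, with 1081.4 to 1565.4 on the light pulse arrays and 1611.1 to 2286.4 after the sham light pulse. Only 3 of these were kept. Flt1 was lower after the light pulse without overlap, while Cldn5 and Pdgfrb overlapped between the groups. The part of this difference in the results was not tested. In pooled tissue, fewer cells of a type and less RNA per cell cannot be told apart.

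No heat shock protein or DNAJ gene passed the adjusted test. In limma with Benjamini-Hochberg adjustment over the kept probe sets, 7 probe sets (0.0677%) had an adjusted p under 0.05, all higher after the light pulse, and 0 of the 79 member probe sets were among them. Cyber-T, the test of the study's methods, also called 0 members. At an unadjusted p under 0.05, 2 member genes were higher, Hspa8 and Dnajb1, and 1 was lower, Dnajc21. That is 2 of 49 genes upward, where 2.11% of all kept genes were called upward, and 1 of 49 downward, where the share over all kept genes was 2.03%. At the same threshold Cyber-T put 3 of the 79 member probe sets upward (3.8%), against 1.99% of all kept probe sets, and 2 downward (2.53%), against 2.28%. The light pulse and sham light pulse arrays did not overlap for 3 member genes that were higher (6.12%), against 5.74% of all kept genes, and for 2 that were lower (4.08%), against 4.38%. The upward shares at an unadjusted p under 0.05 lie above those of all genes but rest on 2 genes or 3 probe sets. The other shares are near those of all genes. Counts this small cannot tell the members from all genes.

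The estimates were centred on 0. Of the 49 genes, 26 lay above 0 (over all kept genes 50.1% did) and 23 below, with a median log2 difference of 0.03 beside 0.00 for all kept genes. They ranged between -1.21 for Dnajc21 and 1.09 for Hspb3, and 47 stayed within 2-fold. The median size of a difference was 0.22 on the log2 scale, beside 0.26 over all kept genes, with a median SE of 0.31, beside 0.35. For 29 of the 49 genes the 95% interval lay inside 2-fold in both directions, beside 45.3% of all kept genes. For the other 20 it reached past 2-fold on at least 1 side. Small changes could not be resolved for most members at 3 arrays per group.

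**Figure D1:**
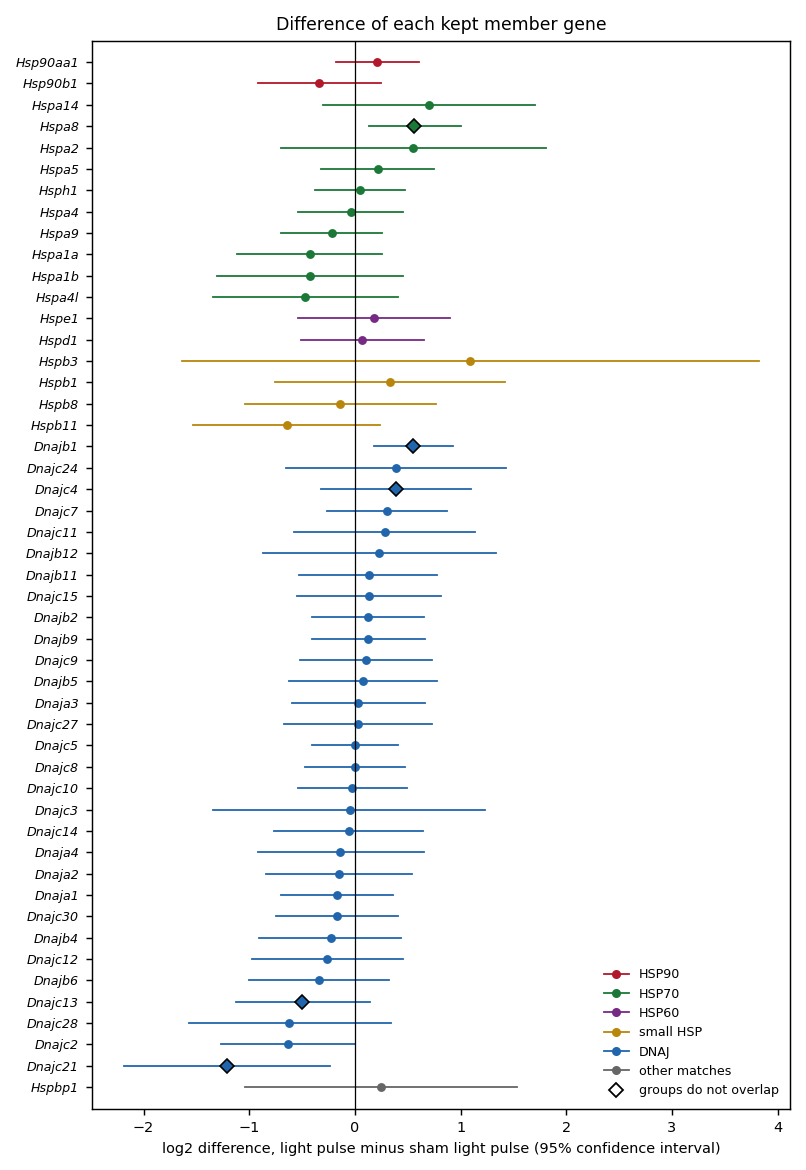
The log2 difference of light pulse over sham light pulse for the 49 genes with a kept probe set, grouped by class. Points are limma estimates, lines their 95% intervals, and diamonds mark the 5 genes whose light pulse and sham light pulse arrays did not overlap. The intervals of 3 genes exclude 0, those of Hspa8 and Dnajb1 above it and that of Dnajc21 below.

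Among the HSP90 genes, both measured members were kept. Hsp90aa1, the stress-inducible cytosolic HSP90, had signals of 15547.0, 19676.3 and 18304.1 on the light pulse arrays, against 14707.9, 16723.8 and 14570.6 on the sham light pulse arrays. The lowest light pulse array fell inside the sham light pulse range, and the difference was 0.21 (SE 0.18, 95% interval -0.18 to 0.61). Hsp90b1, the HSP90 of the endoplasmic reticulum known as GRP94, had 1061.7, 886.6 and 1127.6 on the light pulse arrays, against 1064.6, 1372.5 and 1458.4 on the sham light pulse arrays. Here 2 light pulse arrays lay below every sham light pulse array and the third did not, for a difference of -0.34 (SE 0.27, 95% interval -0.92 to 0.25).

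The HSP70 superfamily, with its HSP110 members, had 10 kept genes of 12, of which 5 lay above 0 and 5 below, and a median difference of 0.00. The 1 gene of this class whose groups did not overlap was Hspa8, the constitutive cytosolic HSP70. Its brightest probe set read 58628.8, 61692.8 and 92789.5 on the light pulse arrays, against 52854.7, 52965.5 and 37170.6 on the sham light pulse arrays. Every light pulse array was above every sham light pulse array, with means of 71037.0 ± 18900.4 after the light pulse and 47663.6 ± 9087.4 after the sham light pulse (SD, 3 arrays each). The difference was 0.56 (SE 0.20, 95% interval 0.13 to 1.00), a ratio of 1.48, with an unadjusted p of 0.0145 and an adjusted p of 0.960 in limma. Without light pulse replicate 3 it was 0.35 (unadjusted p = 0.0852), without sham light pulse replicate 3 it was 0.39 (unadjusted p = 0.0582), and after quantile normalization, which gives all arrays the same distribution, it was 0.02 (unadjusted p = 0.857).

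Hspa8 was the seventh brightest kept probe set, and the brightest probe sets moved with it. Of the 100 brightest, 99 had a difference above 0, 19 had groups that did not overlap, and the median was 0.32, with the middle 90% between 0.13 and 0.52. Relative to each probe set's own mean, their average log2 signal was 0.11, 0.01 and 0.36 on light pulse replicates 1 to 3, against 0.01, -0.03 and -0.46 on sham light pulse replicates 1 to 3. Hspa8 stood at 0.04, 0.11 and 0.70 on the light pulse arrays, against -0.11, -0.11 and -0.62 on the sham light pulse arrays, so the same pair of arrays was highest and lowest. The highest signal on any probe set was 113551.3 on light pulse replicate 3 and 42806.2 on sham light pulse replicate 3. This comparison was chosen after the values were seen, and what part of the Hspa8 difference is shared with other bright probe sets was not tested.

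The other 3 kept probe sets of Hspa8 had groups that overlapped. Their differences were -0.01 (SE 0.23), 0.25 (SE 0.26) and 0.67 (SE 0.40). The last of these, the dimmest, read 283.3, 232.5 and 348.0 on the light pulse arrays, against 161.6, 142.0 and 246.7 on the sham light pulse arrays. Probe sets of Hspa8 can also bind its many processed copies, which leaves their target uncertain.

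**Figure D2:**
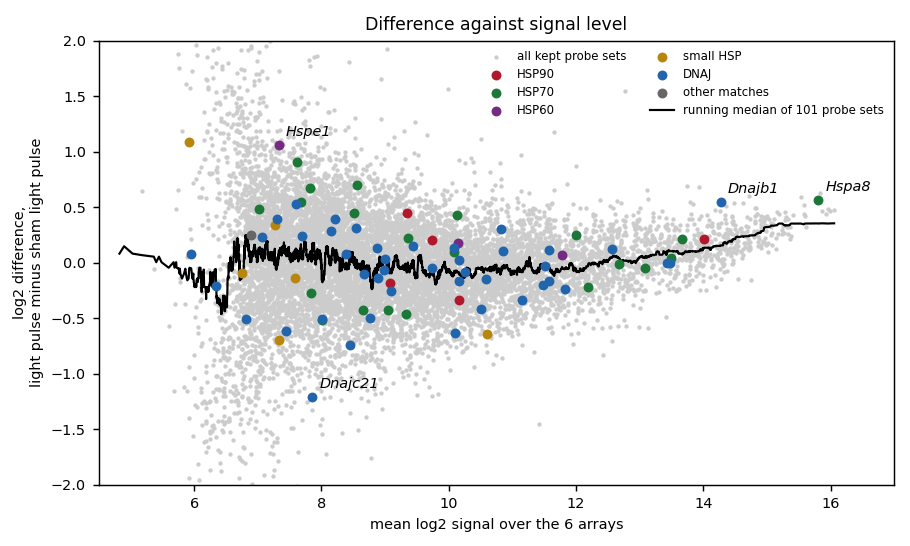
The log2 difference of light pulse over sham light pulse against the mean log2 signal, for all kept probe sets (grey) and for the members (coloured by class). The line is a running median over neighbouring probe sets. The y axis ends at 2 in both directions and leaves out 54 probe sets. The line climbs at the bright end, where Hspa8 lies with a difference of 0.56.

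The inducible HSP70 genes Hspa1a and Hspa1b, the classical targets of heat shock factor, had estimates below 0. Hspa1a read 525.8, 385.7 and 470.8 on the light pulse arrays, against 672.9, 779.8 and 441.9 on the sham light pulse arrays, a difference of -0.43 (SE 0.32, 95% interval -1.12 to 0.26). Hspa1b read 647.0, 225.0 and 289.2 on the light pulse arrays, against 520.5, 580.8 and 340.3 on the sham light pulse arrays, a difference of -0.43 (SE 0.41). In both genes the groups overlapped. A second probe set of Hspa1b gave 0.48 (SE 0.54), so the sign is not settled, and the near-identical copies Hspa1a and Hspa1b can share probes. Hspa1l, the related testis gene, was below the filter with signals of 2.1 to 56.6, and its light pulse arrays, at 51.5, 56.6 and 11.3, lay above its sham light pulse arrays, at 2.1, 7.4 and 5.6, at levels near the floor.

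The HSP110 group holds the exchange factors of HSP70, with 3 members measured. Hsph1, a heat-inducible HSP110, read 10110.2, 12722.3 and 12615.9 on the light pulse arrays, against 10342.1, 12310.4 and 11600.6 on the sham light pulse arrays. The arrays interleaved and the difference was 0.05 (SE 0.20, 95% interval -0.38 to 0.47). Hspa4 had 7992.2, 9119.0 and 8661.2 on the light pulse arrays and 8870.3, 11719.7 and 6659.4 on the sham light pulse arrays, a difference of -0.04 (SE 0.23), while its other kept probe sets gave 0.43 and 0.91. Hspa4l stood at -0.47 (SE 0.41), and at -0.51 (SE 0.37) with its second kept probe set.

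In the endoplasmic reticulum, Hspa5, the chaperone BiP, read 9552.5, 15161.9 and 19159.3 on the light pulse arrays, against 10416.9, 13245.5 and 12853.6 on the sham light pulse arrays. Light pulse replicate 1 was the lowest and replicate 3 the highest of all 6, and the difference was 0.22 (SE 0.25, 95% interval -0.32 to 0.75). In the mitochondrial matrix, Hspa9, known as mortalin, read 3754.4, 4396.9 and 4893.9 on the light pulse arrays, against 5576.6, 4551.6 and 5011.2 on the sham light pulse arrays. Here 2 light pulse arrays were the lowest, the difference was -0.22 (SE 0.22), and a second probe set gave 0.23. The ribosome-bound HSP70 Hspa14 had 368.1, 444.9 and 667.7 on the light pulse arrays and 172.8, 663.5 and 222.2 on the sham light pulse arrays, a difference of 0.70 (SE 0.46) with 1 sham light pulse array nearly as high as the highest light pulse array. Hspa2, best known from the testis, stood at 0.55 (SE 0.58).

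The chaperonin pair showed no separation at its brighter probe sets. Hspd1, the ring-forming HSP60, had 2841.0, 3978.4 and 4130.6 on the light pulse arrays and 2778.6, 3130.7 and 4637.8 on the sham light pulse arrays, a difference of 0.07 (SE 0.27). Hspe1, its lid HSP10, had 813.5, 1506.6 and 1447.1 on the light pulse arrays and 1063.6, 1479.8 and 777.6 on the sham light pulse arrays, a difference of 0.18 (SE 0.33). A second, dimmer probe set of Hspe1 read 233.2, 203.0 and 263.9 on the light pulse arrays, against 150.5, 140.5 and 64.7 on the sham light pulse arrays. Its groups did not overlap, with a difference of 1.06 (SE 0.50, 95% interval -0.00 to 2.13, unadjusted p = 0.0503), so the probe sets of this gene disagreed in size.

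Hspd1 and Hspe1 lie head to head and share a promoter region. In it a heat shock element was found, taken here as at least 3 alternating GAA and TTC triplets with 2 bases between neighbours. It is shown because it is the textbook site of heat shock factor in a pair of members whose brighter probe sets overlapped between the groups, and the capitals mark its 4 triplets with the bases between them. It lies at chr1:55088053-55088082 on the plus strand of GRCm38.p6 (sequence from RefSeq), 89 to 72 bases before the start of Hspe1.
Hspe1: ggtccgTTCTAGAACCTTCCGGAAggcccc
The other member with an element before its start was Dnajb6, at chr5:29735840-29735876 on the plus strand, with 3 triplets in capitals 46 to 34 bases before 1 of its starts.
Dnajb6: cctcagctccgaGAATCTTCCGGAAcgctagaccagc
Such elements stood in 6 of 65 promoter windows of 300 bases (9.23%), of Hspd1, Hspe1, Dnajb6 and Hsph1. In Hsph1 the element lies after the start. These are 3 distinct sites, since Hspd1 and Hspe1 share theirs and those of Dnajb6 and Hsph1 each stand in overlapping windows. Over all 32851 windows, which overlap in the same way for genes with several starts, the share was 0.603%. By gene it was 4 of 51 (7.84%), beside 0.662% of all genes with a window. Windows were found for 51 of the 62 genes, with none for Hspa8 or Hsp90aa1. Those of Hspa1a and Hspa1b held no match to this strict definition, and looser forms of the element were not searched for. A match is a description of the letters and says nothing about binding.

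The small heat shock proteins were the least settled class, with 4 kept genes of 6, 2 above 0 and 2 below, and a median of 0.10. Hspb1, the stress-inducible HSP27, read 143.6, 126.3 and 284.6 on the light pulse arrays, against 166.6, 108.7 and 142.1 on the sham light pulse arrays, a difference of 0.33 (SE 0.51), with light pulse replicate 3 the highest array. Hspb3, a small heat shock protein of muscle, had the highest estimate of all members at 1.09, with an SE of 1.27. It read 27.7, 149.7 and 167.7 on the light pulse arrays, against 42.8, 165.6 and 10.2 on the sham light pulse arrays, so both groups ran across nearly the same range. Hspb11, which despite its symbol is a subunit of the intraflagellar transport machinery of cilia, had 1559.7, 595.1 and 2083.4 on the light pulse arrays and 2093.1, 2562.5 and 1378.1 on the sham light pulse arrays, a difference of -0.64 (SE 0.41). Hspb8, a partner of Bag3 in the autophagy of damaged proteins, stood at -0.14 (SE 0.42).

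Of 38 DNAJ genes measured, 30 were kept, 15 above 0 and 15 below, with a median difference of -0.00. By subfamily, 1 of 4 Dnaja genes, 6 of 8 Dnajb genes and 8 of 18 Dnajc genes lay above 0, with medians of -0.14, 0.12 and -0.02.

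Dnajb1, or HSP40, the heat-inducible J protein that works with cytosolic HSP70, had the smallest unadjusted p of all members in limma. It read 23883.0, 22724.2 and 25334.8 on the light pulse arrays, against 17719.0, 17008.6 and 14525.8 on the sham light pulse arrays. The lowest light pulse array stood well above the highest sham light pulse array, and the means were 23980.7 ± 1308.0 after the light pulse and 16417.8 ± 1676.6 after the sham light pulse (SD, 3 arrays each). The difference was 0.55 (SE 0.17, 95% interval 0.18 to 0.93), a ratio of 1.46 with an interval of 1.13 to 1.90. The unadjusted p was 0.00722 and the adjusted p 0.960 in limma. Within groups its log2 signal varied by an SD of 0.12, the second smallest of the 49 genes.

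Dnajb1 kept its direction in every alternative tried, with an unadjusted p under 0.05 in 14 of 15 (0.0586 with no intensity trend) and an adjusted p between 0.729 and 1.0. Leaving out 1 array at a time gave 0.46 to 0.61, and quantile normalization gave 0.38. Its 100 nearest neighbours in mean signal, chosen after the values were seen, had a median difference of 0.15, with 86 above 0 and 10 that were higher without overlap. None of the 100 had a larger difference than Dnajb1. Relative to its own mean, Dnajb1 stood at 0.27, 0.20 and 0.36 on the light pulse arrays, against -0.16, -0.22 and -0.45 on the sham light pulse arrays. The neighbours stood at 0.09, 0.03 and 0.13 on the light pulse arrays, against 0.08, -0.07 and -0.26 on the sham light pulse arrays. A second, much dimmer probe set read 326.1, 448.9 and 481.8 on the light pulse arrays, against 319.3, 230.8 and 502.6 on the sham light pulse arrays, a difference of 0.31 (SE 0.36) with overlap.

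The promoter of Dnajb1 is shown because the gene ranks first by unadjusted p. The stretch lies at chr8:83608144-83608174 on the plus strand of GRCm38.p6, and the capitals mark the core TGACG of the cyclic AMP response element on the opposite strand, 11 to 7 bases before the start.
Dnajb1: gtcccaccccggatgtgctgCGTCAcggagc
CREB, which binds this element, is a known mediator of light in the SCN, and its part in the Dnajb1 difference was not tested. The core was found on either strand in 29 of 65 member windows (44.6%), of 25 genes, and in 20.8% of all windows. Member windows were also richer in G and C, with a median of 62.3% beside 52.7% over all windows, and the part of this in the share was not tested. The full palindromic element stood in 1 member window (1.54%), that of Dnajc27, beside 1.79% of all windows. No heat shock element of the definition above was found in the Dnajb1 window.

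**Figure D3:**
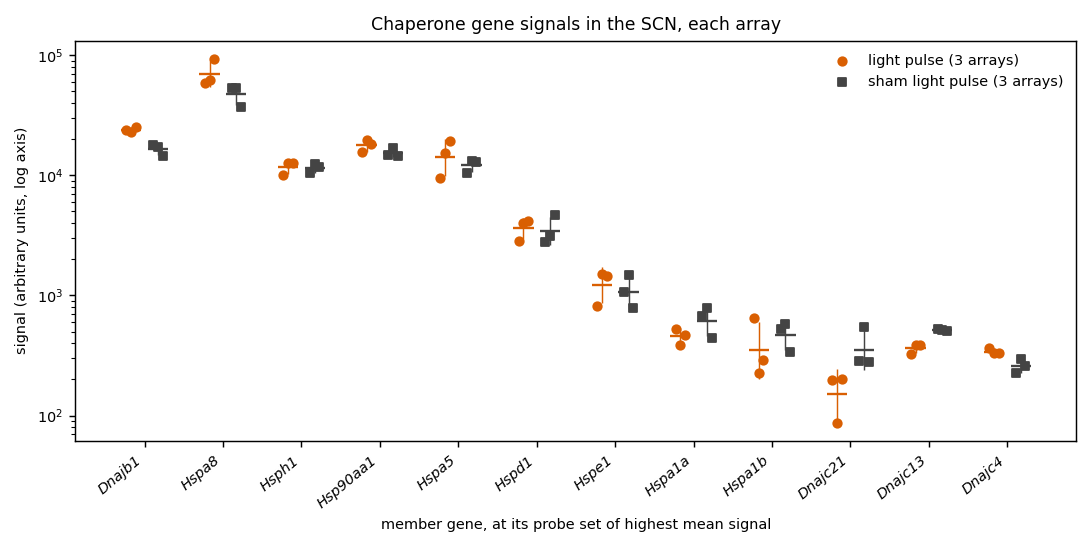
Signals of 12 genes on each array, light pulse left and sham light pulse right, on a logarithmic axis. Points are arrays of 3 pooled mice, with the mean ± SD of the log2 values. For Dnajb1 and Hspa8 the light pulse points lie above all sham light pulse points, for Dnajc21 and Dnajc13 below them, and for Hsph1 and Hspd1 they interleave.

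Dnajc21, which in yeast and man takes part in the maturation of the large ribosomal subunit, had the lowest estimate of all members. It read 198.1, 87.3 and 202.8 on the light pulse arrays, against 284.7, 544.5 and 281.4 on the sham light pulse arrays. The groups did not overlap, and the difference was -1.21 (SE 0.45, 95% interval -2.19 to -0.24), a ratio of 0.432, with an unadjusted p of 0.0186 and an adjusted p of 0.960 in limma. Without light pulse replicate 2, the lowest array, it was -0.81 (unadjusted p = 0.0806), and without sham light pulse replicate 2, the highest, it was -0.90 (unadjusted p = 0.104). Dnajc2, the J protein that pairs with Hspa14 on the ribosome, was also below 0, with 717.0, 1172.6 and 816.8 on the light pulse arrays and 1119.4, 1421.5 and 1604.9 on the sham light pulse arrays. Its groups touched at 1 array each and the difference was -0.63 (SE 0.30, unadjusted p = 0.051).

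Dnajc13, a J protein of endosomes, had the tightest replicates of the members, with an SD of 0.10 on the log2 scale within groups. It read 327.4, 389.7 and 382.8 on the light pulse arrays, against 529.1, 518.7 and 500.6 on the sham light pulse arrays. The groups did not overlap. The difference was -0.50 (SE 0.30, 95% interval -1.13 to 0.14, unadjusted p = 0.116), since limma weighs the small spread of single genes against that of all genes of like signal. Dnajc4 read 365.9, 328.5 and 329.2 on the light pulse arrays, against 226.9, 296.3 and 260.4 on the sham light pulse arrays, also without overlap, for a difference of 0.39 (SE 0.33, unadjusted p = 0.256).

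The brightest probe sets of Dnajc5 and Dnajc8 had differences near 0. Dnajc5, the cysteine string protein of synaptic vesicles, read 12628.5, 11193.7 and 10500.3 on the light pulse arrays, against 10618.7, 12431.2 and 11332.6 on the sham light pulse arrays. The difference was -0.00 (SE 0.19) and the interval of -0.41 to 0.41 was among the narrow ones. Its other kept probe sets gave -0.41 (SE 0.31) and 0.15 (SE 0.45). Dnajc8, a spliceosome component, read 11965.6, 12964.5 and 8526.6 on the light pulse arrays, against 10469.7, 12619.6 and 10009.5 on the sham light pulse arrays, a difference of 0.00 (SE 0.22).

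The other J proteins of the cytosol had overlapping groups. Dnaja1, a heat-inducible partner of HSP70, read 3006.8, 2813.8 and 2787.7 on the light pulse arrays, against 2575.6, 3354.7 and 3885.8 on the sham light pulse arrays, a difference of -0.17 (SE 0.24). Dnaja2 stood at -0.15, Dnajb2, which is rich in neurons, at 0.12, and Dnajb5 at 0.08. Dnajb6, which holds back the aggregation of polyglutamine proteins, had 1519.6, 2191.0 and 2445.6 on the light pulse arrays and 1985.4, 3858.1 and 2159.1 on the sham light pulse arrays, a difference of -0.34 (SE 0.31), while a second probe set gave 0.53. Dnajb4 stood at -0.23 (SE 0.31). In both Dnajb4 and Dnajb6 the highest array was sham light pulse replicate 2.

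In the endoplasmic reticulum, Dnajb9, a J protein of BiP induced by the unfolded protein response, read 7111.0, 4787.0 and 7423.8 on the light pulse arrays, against 5700.1, 7251.2 and 4715.7 on the sham light pulse arrays, a difference of 0.12 (SE 0.25). Dnajb11 stood at 0.13 (SE 0.30) and Dnajc10, a reductase of disulfide bonds, at -0.03 (SE 0.24). Dnajc3, which as p58IPK restrains the kinase PERK, varied more than any other DNAJ gene within groups, with 376.2, 879.9 and 1761.2 on the light pulse arrays and 651.8, 2356.4 and 423.6 on the sham light pulse arrays. Its difference was -0.05 with an SE of 0.60.

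The endoplasmic reticulum stress element, CCAAT followed after 9 bases by CCACG, stood in the windows of 3 members, all of this compartment, and is shown for them as the textbook site of the unfolded protein response. The windows with it were 3 of 65 (4.62%), beside 0.119% of all windows. In capitals from CCAAT to CCACG, on GRCm38.p6, they were chr2:34772013-34772055 (plus strand) for Hspa5, chr14:118937815-118937857 (plus strand) for Dnajc3, and chr10:86705626-86705668 (minus strand) for Hsp90b1. They lie 65 to 47, 105 to 87 and 212 to 194 bases before the start in the same order.
Hspa5: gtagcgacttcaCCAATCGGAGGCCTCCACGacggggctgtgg
Dnajc3: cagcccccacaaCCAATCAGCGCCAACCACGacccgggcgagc
Hsp90b1: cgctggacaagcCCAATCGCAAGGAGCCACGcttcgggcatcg
The differences of these genes were 0.22, -0.05 and -0.34, in the order shown, each with overlapping groups. A further element in the opposite orientation stands in the Hsp90b1 window. The CCAAT box alone was found in 43.1% of member windows and 37.4% of all windows.

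In the mitochondria, Dnaja3 stood at 0.03 (SE 0.29), Dnajc15 at 0.13 (SE 0.31), Dnajc30 at -0.17 (SE 0.27) and Dnajc11 at 0.28 (SE 0.40), all with overlap. The remaining kept DNAJ genes lay between -0.62 for Dnajc28 and 0.39 for Dnajc24, and none had groups that did not overlap.

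The class medians were -0.06 for HSP90 (2 genes), 0.00 for HSP70 (10), 0.12 for HSP60 (2), 0.10 for small heat shock proteins (4) and -0.00 for DNAJ (30), beside 0.00 over all kept genes. With so few genes in most classes the medians follow single members, and those of HSP90, HSP70, HSP60 and the small heat shock proteins moved with the choice of probe set. Hspbp1, an inhibitor of HSP70 that is in no class, stood at 0.25 (SE 0.60).

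**Figure D4:**
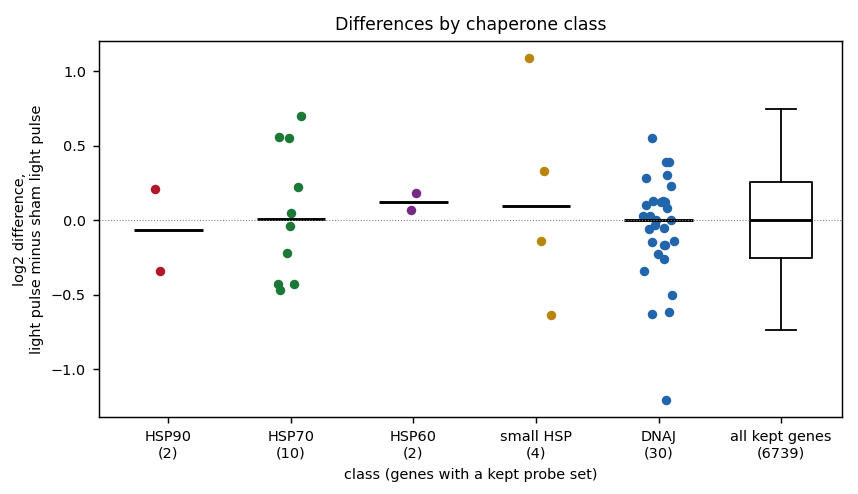
The log2 difference of light pulse over sham light pulse of each gene with a kept probe set, by class, with the class median as a black bar. The box at the right shows all kept genes, with whiskers from the 5th to the 95th percentile. Medians run between -0.06 for HSP90 and 0.12 for HSP60. The 30 DNAJ genes run from -1.21, for Dnajc21, to 0.55, and the 4 small heat shock proteins from -0.64 to 1.09.

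The member signals varied between arrays of 1 group. The mean log2 signal of the 49 genes, relative to each gene's own mean, was -0.14, 0.02 and 0.12 on light pulse replicates 1 to 3, against -0.14, 0.22 and -0.07 on sham light pulse replicates 1 to 3. Sham light pulse replicate 2 held the highest value of 12 genes and sham light pulse replicate 1 that of 2. Light pulse replicate 1 held the lowest value of 13 genes and light pulse replicate 3 that of 6. In HSP70 genes the means were -0.14, -0.04 and 0.25 on the light pulse arrays, against -0.27, 0.34 and -0.14 on the sham light pulse arrays, so the highest of all was a sham light pulse array.

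Probe sets of the same gene often disagreed. Of 23 member genes with several kept probe sets, 11 had estimates on both sides of 0 and 12 on 1 side. For Hspa8, Hspa4, Hspa9, Hspa1b, Hsph1, Hspb1, Dnaja2, Dnajb6, Dnajc3, Dnajc5 and Dnajc11 the sign depended on the probe set. All kept probe sets of Dnajb1, Hsp90aa1, Hspa5, Hspa14 and Hspe1 lay above 0, with 0.21 and 0.45 for the further probe sets of Hsp90aa1. Those of Dnaja1, Dnaja4, Dnajc2, Dnajc10, Hsp90b1, Hspa4l and Hspb8 all lay below 0.

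**Figure D5:**
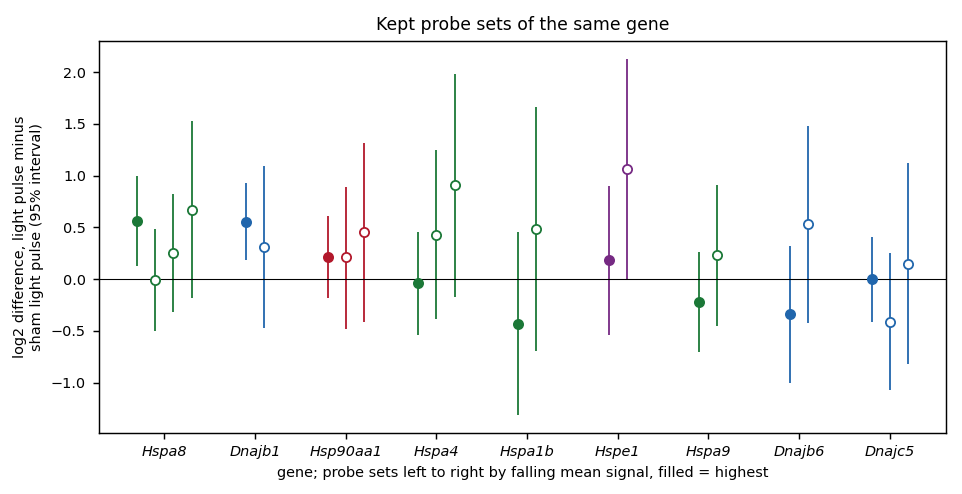
The log2 difference of light pulse over sham light pulse for each kept probe set of 9 genes, with 95% intervals. For Hspa8 the estimates run between -0.01 and 0.67, and for Hspe1 between 0.18 and 1.06.

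The 13 genes with no kept probe set were Hsf2, Hspa1l, Hspa12b, Hspb2, Hspb7, Dnajb3, Dnajb7, Dnajb8, Dnajb13, Dnajc1, Dnajc5b, Dnajc17 and Dnajc18. Hsf2, a heat shock factor with a single probe set, had signals of 3.5 to 51.3 over the 6 arrays. The highest signal of any of the 13 was 275.9, for Dnajc1. Of all 44 member probe sets below the filter, 1 was higher without overlap, that of Hspa1l, and 1 was lower, a probe set of Hspb7. The latter read 38.2, 17.3 and 10.6 on the light pulse arrays, against 40.3, 54.7 and 43.9 on the sham light pulse arrays. Over all kept probe sets 5.62% were higher and 4.46% lower without overlap. The shares over all probe sets below the filter were not computed.

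The other chaperone genes, in lists fixed by name and not by how they moved, also held 0 genes past the adjusted test in limma, and 1 past an unadjusted p of 0.05. Over all kept genes, 4.14% had an unadjusted p under 0.05 in limma. Without overlap, 5.74% of all kept genes were higher and 4.38% lower. Of the cytosolic HSP70 and HSP90 co-chaperones 21 of 22 were kept, 9 above 0 and 12 below, with a median of -0.04. That 1 gene was Sgta, which guides tail-anchored proteins, with 323.6, 342.7 and 333.0 on the light pulse arrays, against 255.3, 141.6 and 137.7 on the sham light pulse arrays. Its groups did not overlap and the difference was 0.96 (SE 0.39, unadjusted p = 0.0267). The cytosolic chaperonin CCT with prefoldin had 14 of 15 kept, 8 above 0 and 6 below, with a median of 0.06, and its brightest members Cct3 and Cct2 stood at 0.16 and 0.14.

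Of the endoplasmic reticulum chaperones and unfolded protein response genes 18 of 20 were kept, 12 above 0 and 6 below, with a median of 0.17 and 0 at an unadjusted p under 0.05. The brightest were Xbp1, a transcription factor of that response, at -0.02 (SE 0.20) and the lectin chaperone Canx at -0.03 (SE 0.21). Sel1l, a part of the machinery that exports misfolded proteins for degradation, was the 1 gene of the list without overlap. Its lowest light pulse array read 183.8, against 180.3 on its highest sham light pulse array, a difference of 0.78 (SE 0.46, unadjusted p = 0.113). Atf4, a transcription factor of the stress response, stood at 0.71 (SE 0.35, unadjusted p = 0.062) with overlap. Both were named after their values were seen. The mitochondrial list had 11 of 11 kept, 5 above 0 and 6 below, with a median of -0.03, and 0 at an unadjusted p under 0.05. The remaining heat shock response genes, which share some members with the co-chaperones, had 8 of 11 kept, 4 above 0 and 4 below, a median of -0.00 and 0 at an unadjusted p under 0.05. Among them the lens and glial small heat shock protein Cryab stood at 0.06 (SE 0.25) and the HSP90 co-chaperone Chordc1 at -0.21 (SE 0.24). A pair of further genes is named after its values were seen. The collagen chaperone Serpinh1 had 195.9, 15.9 and 22.4 on the light pulse arrays, against 290.8, 120.3 and 148.9 on the sham light pulse arrays, a difference of -2.07 (SE 0.98, unadjusted p = 0.0539) with overlap. The HSP70 co-chaperone Bag3, which is on both lists and below the filter, had 96.5, 79.0 and 80.3 on the light pulse arrays, against 18.4, 15.0 and 46.7 on the sham light pulse arrays, without overlap.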

How the data were processed

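The deposited values were signal intensities on a linear scale, 1 per probe set, which the authors computed with MAS5, the Microarray Suite algorithm, and scaled for each array. Groups and replicate numbers came from the sample labels. Genes were named from the platform annotation, for the 20380 probe sets with 1 symbol (691 had several and 1555 none), and all 62 members were found in RefSeq by Entrez ID. The log2 of the signal was taken without any offset. The groups were set side by side in limma 3.58.1 under R 4.3.3, two-sided, with lmFit and an eBayes step that follows the trend of the variance with signal. P-values were adjusted by Benjamini-Hochberg, with a threshold of 0.05. For members below the filter only signals are given. The fit covered 45.7% of probe sets, those whose third-highest signal over the 6 arrays was at least 118.2, in place of present calls. The probe set with the highest mean log2 signal stood for a gene. A ratio is that of geometric means. No exact permutation test was used, since with 3 arrays a group it cannot go below p = 0.1. P-values measure the spread between pools.

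The members and gene lists were chosen with earlier results of these data known. The genes named with values were those past an unadjusted p of 0.05, the brightest and the non-overlapping ones of each class, and a list of well-known members, and further genes were added after their values were seen to complete each compartment. Alternatives were other filters, scalings, offsets and tests, a replicate block, other choices of probe set and leaving out each array. The limma step was tested on simulated data. Motifs were searched on both strands of RefSeq windows of 250 bases before to 50 after each start. No protein sequences were used here. Array signals give no counts, so their number limits the precision.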

Additional observations from a re-analysis of the deposited data

How the results depend on the processing

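In every alternative 0 members passed the adjusted test, and the number of probe sets lower after the light pulse stayed at 0. The 7 probe sets called higher became 4 with no intensity trend in limma, 5 with Cyber-T and 5 to 8 when 1 array was left out. The HSP90 median, -0.06, was 0.45 without the probe sets whose names end in _s_at, _x_at or _a_at. Only Hsp90aa1 is then left, with another probe set. With all kept probe sets counted the HSP90 median was 0.21. The HSP70 median, 0.00, was 0.22 with all kept probe sets counted. The HSP60 median, 0.12, was 0.57 without the probe sets of those name endings. The median of the small heat shock proteins, 0.10, was -0.64 with 5000 probe sets, where only Hspb11, the cilia subunit, is left. It was also -0.64 without the probe sets of those name endings. Member probe sets at an unadjusted p under 0.05 ran between 1 and 5 upward (1.27% to 6.33% of those tested, beside 1.43% to 3.03% of all probe sets), with 5 without light pulse replicate 1 or sham light pulse replicate 2 and 1 without replicate 3 of either group. Downward they ran between 1 and 3 (1.27% to 3.8%, beside 1.29% to 2.72%), with 3 without light pulse replicate 3. Among the genes whose groups overlapped, 7 values moved by more than the spread within groups, all with another choice of probe set. The other 5 genes were judged by direction and adjusted p, not by this spread. Quantile normalization took Hspa8 from 0.56 to 0.02 and Dnajb1 from 0.55 to 0.38, beside spreads of 0.33 and 0.12. The estimate of 25 of 49 genes changed sign under at least 1 alternative. None of the 5 genes whose groups did not overlap was among these. With the replicate number as a block, 6 probe sets were called and 0 members, and the unadjusted p of Dnajb1 was 0.0235, that of Hspa8 0.0352 and that of Dnajc21 0.0349. Deviations of same-numbered arrays from their group means had correlations of 0.0958, -0.192 and -0.129. Those of differently numbered arrays ran between -0.111 and 0.203. No pairing by number was seen, though 3 arrays per group cannot exclude it. With 3 arrays per group, the precision is set by the number of arrays, and dim probe sets vary most.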
